A study of Mus musculus with 10 samples.

Results

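The comparison of p27KO with wild-type (WT) proliferating neurospheres asked where accessible chromatin differed between the genotypes while both were held in mitogens. p27 is the cyclin-dependent kinase (CDK) inhibitor encoded by Cdkn1b. It binds cyclin E with CDK2 and cyclin D with CDK4 or CDK6 and restrains entry into S phase, and mitogens keep its level low by ubiquitination through Skp2 and by lower transcription. Neural stem cells of the subependymal zone (SEZ) grow as floating spheres in epidermal growth factor (EGF) and fibroblast growth factor (FGF) and give rise to neurons, astrocytes and oligodendrocytes once these are withdrawn.

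The 5 proliferating (PRO) libraries, 3 labelled WT and 2 labelled Cdkn1b (p27KO), were taken from a series of 10. The other libraries came from cells 24 h after mitogen withdrawal (DIFF). In the study's protocol, DIFF cells were first seeded for 2 days on Matrigel with FGF. They then had 2% serum in place of mitogens, so PRO and DIFF differ in more than mitogens. Each PRO library was made by ATAC-seq, in which a transposase cuts open DNA, from 50000 cells of SEZ cultures of mice aged 10 weeks. Both genotypes were grown in 20 ng/ml EGF and 10 ng/ml FGF and carried the labels of 3 days in vitro, although the study's results give a longer time, so the time is not settled here. Per the study's methods, the Cdkn1b mice came from the Jackson Laboratory and were kept on a C57BL/6J background. No tissue-restricted deletion is named, so development without p27 cannot be told apart from its absence in culture. The series calls its replicates biological but does not say how many mice went into each culture. One label field of the p27KO libraries speaks of WT cells while the title and the genotype field say otherwise, and the targeted gene is therefore given first.

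Peaks of the 5 lists on chromosomes 1 to 19 were merged into 112830 intervals, and the 82674 with peaks from 2 or more libraries were compared. Of these, 53420 had a peak in all 5 libraries. Each region was scored by the rank of its fold enrichment (pileup over local background) within its own library. Ranks were converted to normal scores, and all regions that a library lacked shared its lowest rank. A difference in score is thus a shift in rank among the open regions of a library, not a fold change of signal, and the absence of a peak means that the caller listed none. The lists held 76372 to 91801 peaks. Read totals per library are not given in the sources used here, and the genome-wide background pileup solved from them was 2.61 to 3.41 with overlapping ranges in the genotypes.

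The sex of the animals is not labelled, and the libraries split by it exactly as by genotype. The start sites of the Y-linked genes Ddx3y, Eif2s3y, Uty and Kdm5d were open in 6 WT libraries of the series, all 3 of the PRO ones included, and in 0 p27KO libraries of either condition. Xist, which is transcribed from the inactive X of female cells, had a peak at its start site in 2 of 2 p27KO PRO and 0 of 3 WT PRO libraries. Genotype and sex cannot be told apart in any value that follows, and for this reason only autosomes were compared.

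At Cdkn1b, the peaks followed the genotype of the titles. The region over the start site of Cdkn1b (ENSMUSG00000003031, plus strand; GRCm38, chr6:134919805-134920945) reaches from the promoter into the gene. The fold enrichment there was 10.98, 11.59 and 10.63 in WT PRO replicates 1 to 3, and neither p27KO PRO library had a peak. The groups did not overlap, and the mean percentile among regions was 85.7 ± 0.940 (SD, n = 3) in WT, while p27KO shared the lowest rank. The difference in score was −2.64 ± 0.14 (SE), with an adjusted p of 0.00229 over 14886 promoters and 0.0159 over all regions (limma). Over all regions the call was lost without any 1 of the 5 libraries (limma, adjusted p = 0.124 to 0.858), and over promoters without WT PRO replicate 3 (0.0625). The 250 bases before the start site, which lie inside the WT peaks and in no p27KO peak, are shown because this was the only promoter to pass the test. RefSeq (GRCm38.p6) gives them on the plus strand as chr6:134920151-134920400. Whether these bases are intact in the p27KO cells was not tested, so the missing peak is not read as closed chromatin.

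Cdkn1b promoter: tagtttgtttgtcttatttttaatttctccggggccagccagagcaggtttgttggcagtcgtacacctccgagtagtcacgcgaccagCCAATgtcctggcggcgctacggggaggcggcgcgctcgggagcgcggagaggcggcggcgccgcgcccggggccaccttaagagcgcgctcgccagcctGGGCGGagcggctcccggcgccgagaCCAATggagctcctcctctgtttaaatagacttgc

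Capitals mark 2 CCAAT boxes, the motif of NF-Y, and 1 GGGCGG box, the motif of Sp1. On either strand, CCAAT was present in 33.8% and GGGCGG in 32.7% of 32851 RefSeq promoter windows of the same 250 bases. The E2F motif TTTCCCGC (0.895% of windows) and TATAAA (12.4%) were searched as well and these letters are not in the window.

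No other region near Cdkn1b passed the test. A region upstream (chr6:134916616-134917516) had a fold enrichment of 3.08, 2.57 and 3.09 in WT PRO and of 6.30 and 6.61 in p27KO PRO libraries. Its values did not overlap between genotypes, but the difference of 1.10 ± 0.18 (SE) did not pass the test (limma, adjusted p = 0.248). Between it and the start site, a region at chr6:134919226-134919665 had a peak of 2.87 and 4.41 in p27KO PRO and none in WT PRO libraries (difference 0.65, limma adjusted p = 0.694). The region downstream of the gene (chr6:134928177-134929323) was open in each library, at 14.5, 14.1 and 12.3 in WT PRO and 12.8 in both p27KO PRO libraries (difference −0.35, limma adjusted p = 0.811). The genotypes overlapped at this downstream region. Within 1 Mb of the gene, 4 of 141 regions had peaks in p27KO only (2.84%) and 1 in WT only, and the Cdkn1b promoter was the single region called.

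**Figure D1:**
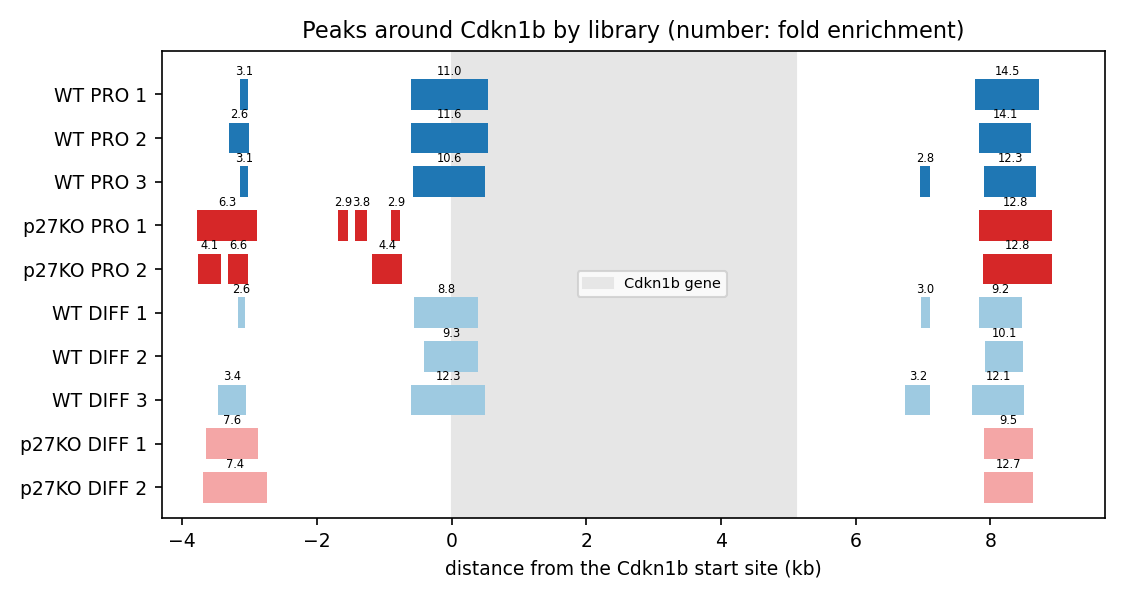
Peaks around Cdkn1b in each of the 10 libraries, plotted as bars against the distance from the start site in kb, with the fold enrichment of each peak above its bar and the gene body shaded. The peak over the start site is present in the 6 WT libraries and absent from the 4 p27KO libraries, and the largest fold enrichments near −3 kb are those of the p27KO libraries.

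Outside Cdkn1b, the rank test called few regions. Of 82674 regions, 27 passed (0.0327%; limma, Benjamini-Hochberg adjusted p under 0.05), 22 of them higher in p27KO PRO (0.0266% of regions) and 5 lower (0.00605%). Unadjusted, 5791 regions (7% of those tested) had a p under 0.05. In simulated data with 200 of 82674 regions changed, the test recovered 0% of changes of 1.5 and 70% of changes of 3 in score. Shifts of the smaller size were thus not seen in the simulation. Its random noise did not include the lowest rank shared by regions that a library lacked. It therefore sets no detection limit for regions without a peak in a whole genotype. Just below the threshold lay an intronic tetranucleotide repeat nearest to 4930524B15Rik (−3.93, limma adjusted p = 0.0506). An intronic region nearest to Slc15a4 followed (1.92, limma adjusted p = 0.0766). All 22 higher regions had a peak in both p27KO PRO and no WT PRO library. All 5 lower regions had a peak in all 3 WT PRO and no p27KO PRO library. The 22 thus entered the comparison only through the p27KO lists, and their WT values were the shared lowest rank. Their adjusted p therefore does not measure a spread of WT signal. With a peak required in 3 or more lists, which leaves these 22 out, 0 higher and 1 lower regions were called.

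What the called regions shared was their sequence. Of the 22 regions higher in p27KO, 19 held an internal telomere repeat, that is, at least 3 adjoining TTAGGG units on either strand. This unit makes up the chromosome ends, and short tracts of it also lie inside mouse chromosomes. Of the 5 lower regions, 4 held a tetranucleotide repeat, a run of at least 40 bases with a period of 4, and the remaining region was the Cdkn1b promoter. Among all 82674 regions, 99 (0.120%) held a telomere repeat and 163 (0.197%) a tetranucleotide repeat. These 2 classes were defined after the called sequences were seen. With both classes left out, 2 regions were called, Mphosph8 among them, and the Cdkn1b promoter was not (limma, adjusted p = 0.115).

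The telomere-repeat regions were narrow and strongly enriched. Near Adgrl3, an adhesion receptor gene (intergenic, chromosome 5), the fold enrichment was 38.7 and 44.3 in the p27KO PRO libraries with no peak in WT PRO libraries (difference 4.78 ± 0.18 SE, limma adjusted p = 0.00120). At an intronic region nearest to Tmcc3 (chromosome 10) it was 31.5 and 45.9, again with none in WT PRO libraries. Near Ankle1, an endonuclease gene (intergenic, chromosome 8), it was 29.5 and 41.0. Both p27KO libraries thus ranked these 3 regions above at least 99.9% of their other regions.

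The 22 higher regions were 81 to 163 bp wide with a median fold enrichment of 30.9 over both p27KO PRO libraries (range 14.6 to 46.0), and the score differences ran from 3.21 to 4.78. They lay on 10 chromosomes, 14 of them intergenic and 8 in introns, and none at a promoter. Large differences were also found near Ppp2r2b (4.77), Olfr806 (4.67), Plxnc1 (4.65), Mkx (4.65), Adcyap1 (4.64), Fam241a (4.62) and Ccng2 (4.61). Such repeats are not unique in the genome: the middle 25 bases of the Adgrl3 region occur 556 times on the autosomes of the reference. The sources name no filter on mapping quality, and the part of reads from other copies, or from the chromosome ends, in these peaks was not tested.

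Another 3 regions higher in p27KO held neither repeat. Among them were intronic regions nearest to Itga9, an integrin gene (chr9:118674950-118675061), and Mphosph8 (chr14:56693996-56694158). The fold enrichment in the p27KO PRO libraries was 14.6 and 17.8 at Itga9 and 20.8 and 28.4 at Mphosph8. No WT PRO library had a peak at either place, so the groups did not overlap. Itga9 lost its call without any 1 WT PRO library (limma, adjusted p = 0.262 to 0.285) and with the repeat regions left out (0.220), and Mphosph8 in the fit on all 4 groups (0.114). The sequences of both (GRCm38.p6, plus strand) are shown because neither holds a telomere or tetranucleotide repeat. As an exact match, the middle 25 bases of each occur 1 time on the autosomes of the reference. Inexact copies, and copies outside the assembled autosomes, were not counted, so the regions are not shown to be single-copy.

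Itga9 region: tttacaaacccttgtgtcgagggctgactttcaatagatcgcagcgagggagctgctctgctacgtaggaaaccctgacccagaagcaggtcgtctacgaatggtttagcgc

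Mphosph8 region: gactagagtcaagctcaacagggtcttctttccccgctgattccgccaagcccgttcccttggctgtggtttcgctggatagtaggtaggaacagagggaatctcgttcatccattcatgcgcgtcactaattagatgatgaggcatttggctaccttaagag

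The 4 tetranucleotide regions moved the other way. At an intronic region nearest to Pcca, a propionyl-CoA carboxylase subunit gene (chr14:122568953-122569112), the fold enrichment was 21.6, 21.04 and 27.1 in WT PRO replicates 1 to 3. No p27KO PRO library had a peak there (difference −4.64 ± 0.18 SE, limma adjusted p = 0.00120). At an intronic region nearest to Nxpe4 (chr9:48217552-48217786) the fold enrichment was 10.8, 10.2 and 10.7, with no peak in p27KO. The others lay near Pthlh (difference −3.11) and Zfp608 (difference −2.52). The middle 25 bases occur 768 (Pcca), 1297 (Nxpe4), 34509 (Pthlh) and 762 (Zfp608) times on the autosomes of the reference. The part of reads from other copies was not tested here either. Without either p27KO PRO library none of the 4 was called, and without any 1 WT PRO library only Pcca was. The Pcca and Nxpe4 sequences (GRCm38.p6, plus strand) are shown with the longest run of 1 repeat unit in capitals, 83 and 67 bases long.

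Pcca region: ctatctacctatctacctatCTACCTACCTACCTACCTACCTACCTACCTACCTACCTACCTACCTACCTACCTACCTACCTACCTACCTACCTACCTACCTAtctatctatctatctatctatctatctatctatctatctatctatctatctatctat

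Nxpe4 region: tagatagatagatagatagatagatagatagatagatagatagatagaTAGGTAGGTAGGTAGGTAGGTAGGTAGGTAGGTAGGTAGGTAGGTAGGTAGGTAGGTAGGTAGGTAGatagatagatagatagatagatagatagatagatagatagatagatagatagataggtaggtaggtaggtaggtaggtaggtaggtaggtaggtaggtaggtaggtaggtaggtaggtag

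The called regions were also looked up at DIFF. The 5 lower regions, the Cdkn1b promoter included, had a peak in all 3 WT DIFF and neither p27KO DIFF library. Of the 22 higher regions, 4 had a peak in any p27KO DIFF library and 4 in any WT DIFF library. The interaction of genotype and condition over all 10 libraries passed for 18 regions (0.0218%, limma), 16 of them among the 22. In these 16 no library other than p27KO PRO had a peak, so the interaction repeats the PRO difference that chose them and is no separate test. At DIFF alone, 2 regions passed the genotype contrast (0.00242%).

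**Figure D2:**
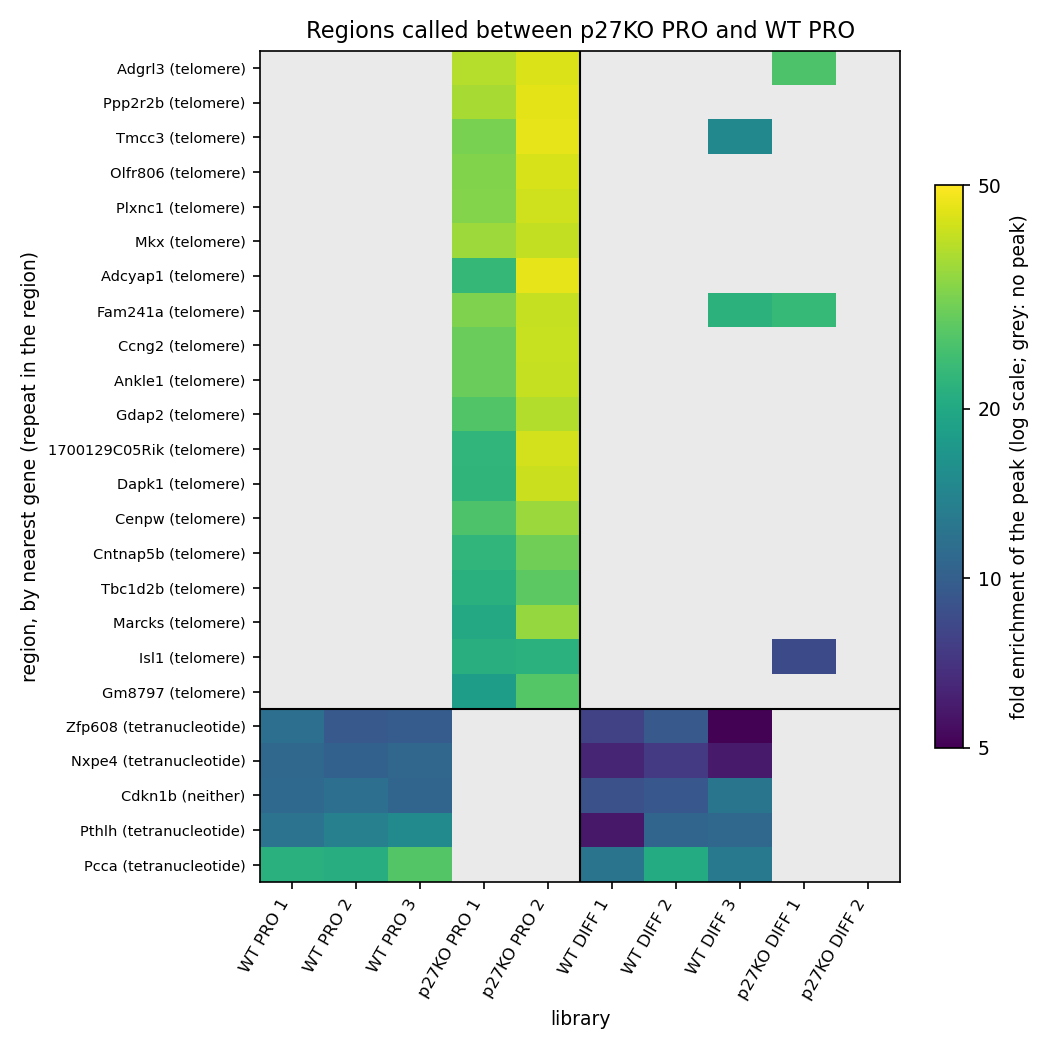
Fold enrichment (log colour scale, grey where no peak was called) of the 19 called telomere-repeat regions and the 5 called regions lower in p27KO, one per row by nearest gene, in the 10 libraries, one per column. The 19 regions above the line have values in both p27KO PRO libraries and in no WT PRO library, and the 5 below it have values in all 6 WT libraries and no p27KO library.

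The internal telomere repeats were then counted over the whole reference rather than at called peaks alone. Tracts at called regions were kept in. The repeat class was defined after those regions were seen, so the counts are no separate test. Chromosomes 1 to 19 hold 277 tracts with at least 4 exact adjoining units. Of these, 84, 80 and 95 had a peak in WT PRO replicates 1 to 3 and 127 in each p27KO PRO library, while DIFF libraries had 77 to 93. The p27KO PRO libraries lay above each of the other 8 libraries. Between the PRO groups the means were 86.3 ± 7.77 (SD, n = 3) and 127 ± 0.00 (SD, n = 2), a difference of 40.7 tracts (exact permutation test, two-sided, p = 0.2, which is the smallest that 10 arrangements of 5 libraries allow). Equal lists of 57000 peaks gave the same counts in the 5 PRO libraries.

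The difference was found among the longer tracts. Of the 78 tracts with 72 or more repeat bases, 64.1%, 57.7% and 71.8% had a peak in WT PRO libraries and 98.7% and 94.9% in p27KO PRO libraries. Of the 92 tracts with 48 to 66 repeat bases, the shares were 14.1%, 15.2% and 19.6% in WT PRO and 30.4% and 31.5% in p27KO PRO libraries. Of the 107 tracts with 24 to 42 repeat bases, they were 19.6% in all 3 WT PRO and 20.6% and 22.4% in p27KO PRO libraries. The gap between genotypes was thus widest above 72 bases and about 1 to 3 tracts in the shortest class. At 79 tracts each PRO library had a peak, and at 37 of them both p27KO values lay above all WT values and at 0 below. These are fold enrichments, and the share of such separations among all regions open in each PRO library was not counted. The 37 against 0 is therefore no result by itself. No tract had a peak in all 3 WT PRO libraries alone, against 25 tracts with a peak in both p27KO PRO libraries alone.

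**Figure D3:**
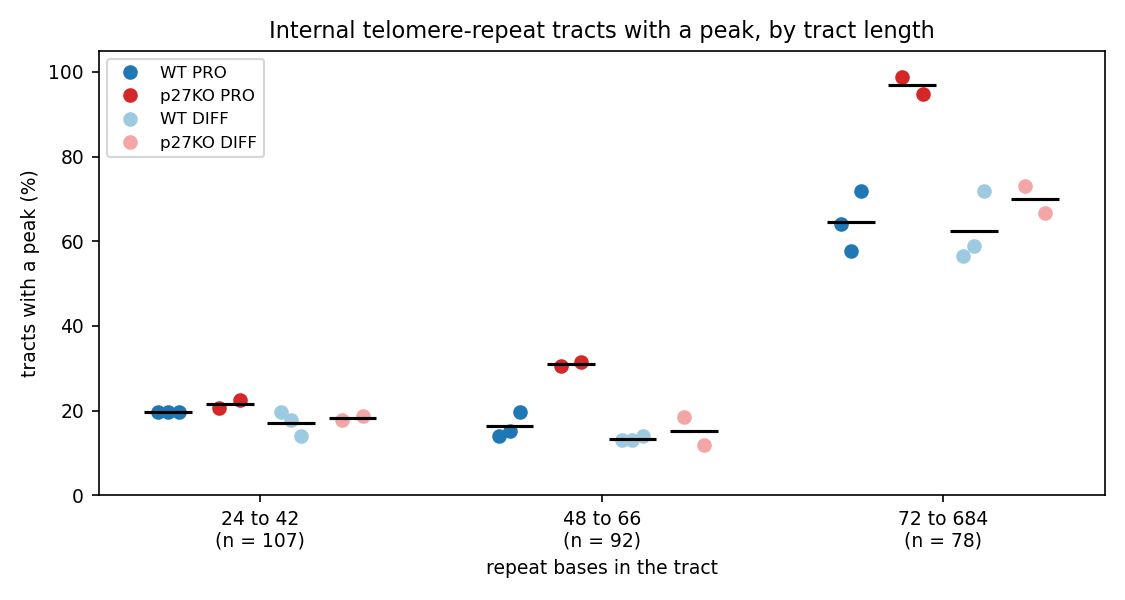
Share of internal telomere-repeat tracts with a peak (%), by repeat bases in the tract, with 1 point per library and a line at each group mean. In the longest class, the p27KO PRO points (94.9% and 98.7%) lie above all WT PRO, WT DIFF and p27KO DIFF points, which reach 73.1%.

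Both repeat classes were also counted as a whole, called regions included. Of 163 tetranucleotide regions, 151 to 152 had a peak in the WT PRO and 136 and 139 in the p27KO PRO libraries, and their median score difference was 0.02, beside −0.01 for all regions. Unadjusted, 19 were lower and 2 higher with a p under 0.05, and over all regions these shares were 3.34% and 3.66%. Of the 99 regions with a telomere repeat, by the same criterion, 26 were higher and 0 lower. They had a peak in 99 and 98 cases in p27KO PRO and in 63, 59 and 74 cases in WT PRO libraries.

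Peaks in one genotype only were mostly weak, and their number changed with list length. A peak in both p27KO PRO and no WT PRO library was found at 2110 regions (2.55%), and one in all 3 WT PRO and no p27KO PRO library at 478 (0.578%). The p27KO lists were longer, with 88750 and 81084 autosomal peaks against 77843, 75835 and 74176 in WT (difference 8966, exact permutation p = 0.2). The peaks of p27KO were also narrower, with median widths of 279 and 318 bp against 356, 381 and 327 bp, and the covered length of 35.5 and 34.8 Mb lay within the WT range of 32.8 to 37.9 Mb. With equal lists of 57000 peaks the counts were 684 (1.14%) for p27KO only and 669 (1.12%) for WT only. The excess of regions open in p27KO alone was thus not seen at equal list length. Chromosomes 2 to 19 held 535 of these p27KO-only and 652 of these WT-only regions. The p27KO-only and WT-only counts also ask for a peak in unlike numbers of libraries. With equal lists the rank test called 25 regions (0.0418%), 22 higher (0.0368%) and 3 lower (0.00502%), and of the higher ones 19 overlapped a telomere repeat. Of the regions open in p27KO alone, 144 of the 2110 (6.82%) overlapped a region of the same kind in the equal lists.

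The 2110 regions lay away from promoters. Within 3 kb of the start site of a protein-coding gene were 8.25% of them, 10.5% of the 478 WT-only regions and 22.8% of all regions, and 44.6%, 36.4% and 34.6% were intergenic. Their median width was 178.5 bp for p27KO only and 297.5 bp for WT only, against 488 bp for all regions. Binding motifs were counted in 301 bp around the summit. On either strand, the SOX motif CATTGT was in 17.7% of p27KO-only, 16.7% of WT-only and 16.0% of all regions, and the E-box CAGCTG of proneural factors in 24.2%, 22.0% and 27.2%. The AP-1 motif TGANTCA was in 10.8%, 12.8% and 12.1%. The promoter-borne ETS motif CCGGAAGT was in 0.284%, 0.209% and 1.504%, and the E2F motif TTTCCCGC in 0.0948%, 0.418% and 0.555%, which are 2 and 2 regions in the single-genotype sets. The palindromic NFI motif was in none of either set and in 0.126% of all regions.

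Few of these regions kept their pattern after mitogen withdrawal. Of the 2110, 22 (1.04%) had a peak in both p27KO DIFF and no WT DIFF library, against 0.445% of all regions, and 1014 (48.1%) had no peak in any DIFF library, against 31.4% of the WT-only and 15.4% of all regions. Of the 478, 13 (2.72%) had a peak in all 3 WT DIFF and no p27KO DIFF library, against 0.3798% of all regions. By nearest start site, the genes with the most p27KO-only regions were Epha4, an ephrin receptor gene (7 of 35 regions), Kcnt2, a potassium channel gene (7 of 38), Fhit (5 of 36) and Insig2, a regulator of sterol synthesis (5 of 26), followed by 12 genes with 4 each, such as Abca13 (4 of 18). Among the first 4 genes, Epha4, Kcnt2 and Insig2 lie on chromosome 1.

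Chromosome 1 stood apart as a whole. Of its 6989 regions, 395 (5.65%) had peaks in p27KO only, against 1.71% to 2.95% on the other autosomes, and 16 (0.229%) in WT only, against 0.398% to 1.04%. With equal lists, the p27KO-only share was 3.01%, against 0.426% to 1.44% elsewhere. Chromosome 1 held 8.09%, 7.35% and 8.25% of the autosomal peaks in WT PRO and 9.57% and 9.27% in p27KO PRO libraries, without overlap (difference 1.52 percentage points, exact permutation p = 0.2, the smallest possible). In DIFF libraries the shares were 8.05%, 7.05% and 8.45% in WT and 9.53% and 8.80% in p27KO.

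The shift ran along the chromosome. The median score difference was 0.11 on chromosome 1 and −0.04 to 0.01 on the other autosomes, and it was positive in each of its 20 windows of 10 Mb (0.07 to 0.20). Pileups were taken at regions open in all 5 libraries where they were solved, 3073 of them on chromosome 1. Peaks with a −log10 p of 60 or more were left out. Relative to all autosomes, the median log2 pileup on chromosome 1 was −0.06, −0.19 and −0.05 in WT PRO and 0.13 and 0.19 in p27KO PRO libraries. WT PRO replicate 2 was the lowest. The number of copies of the chromosome in these cultures was not measured and its part in this shift was not tested.

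**Figure D4:**
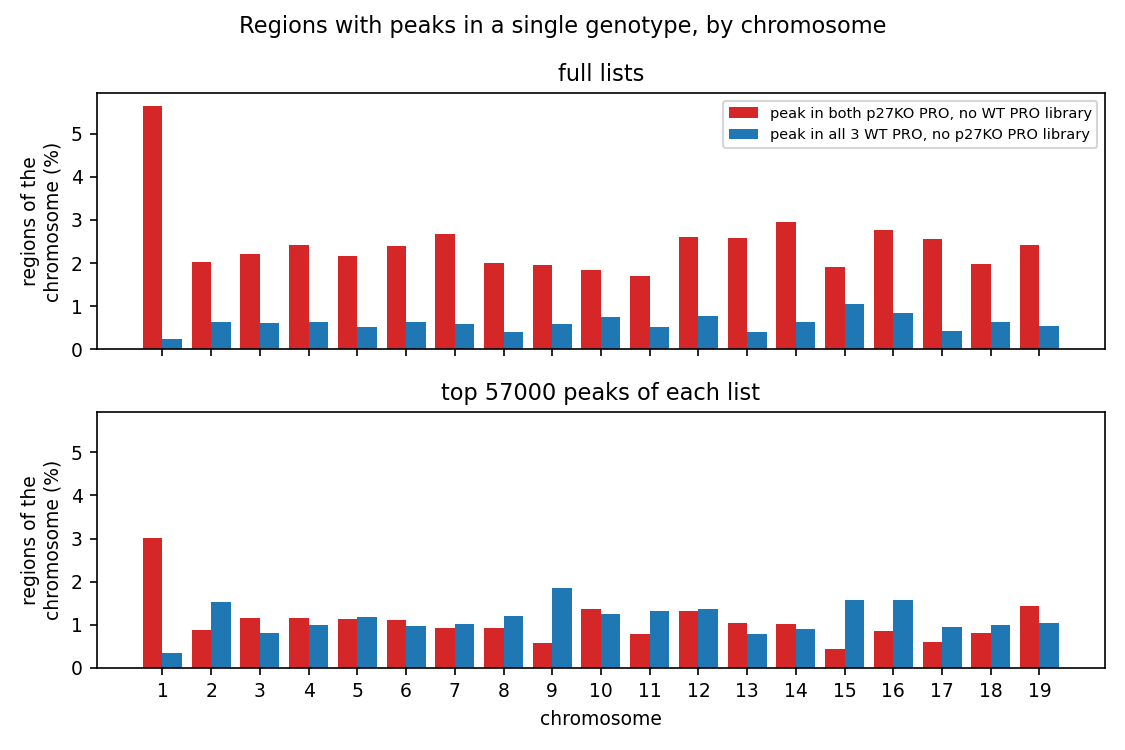
Share of the regions of each autosome (%) with peaks in p27KO PRO only (red) or WT PRO only (blue), for the full lists (top) and for the top 57000 peaks of each list (bottom). Chromosome 1 has the tallest red bar in both panels, 5.65% and 3.01%, and the blue bar there is the shortest.

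At gene promoters, Cdkn1b was the only one of 14886 to pass the test (0.00672%), while 879 (5.9%) had an unadjusted p under 0.05, 360 higher (2.42%) and 519 lower (3.49%). The median difference over all promoters was −0.01, and 48.6% were positive. The share of promoters without overlap between genotypes was not counted, so non-overlap at the genes below is no result by itself. Promoters made up 24.4%, 24.8% and 25.4% of peaks in WT PRO and 23.1% and 24.1% in p27KO PRO libraries (difference −1.26 percentage points, exact permutation p = 0.2). With equal lists this turned to 0.0810 percentage points (exact permutation p = 0.6), and the groups overlapped.

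Among the cell cycle genes, no promoter outside Cdkn1b passed the test. Of 7 CDK inhibitor genes, 1 was higher and the median difference was −0.03. Cdkn2a, which encodes p16 and p19ARF, had a fold enrichment of 10.15, 9.42 and 9.97 in WT PRO and 7.29 and 4.43 in p27KO PRO libraries. Its values did not overlap, and the difference of −0.82 ± 0.20 (SE) did not pass adjustment (limma, unadjusted p = 0.00406, adjusted p = 0.666). It was singled out after its values were seen, as were the genes below with an unadjusted p. Of 11 G1 cyclin and CDK genes, 7 were higher with a median of 0.08 and 0 called. Of 13 E2F and pocket protein genes, 7 were higher with a median of 0.00, and of 12 genes of p27 turnover and transcription, 4 with a median of −0.03. Of 18 DNA replication genes 11 were higher (median 0.03), and of 18 mitosis genes 9 (median −0.01). None of the members of these 5 lists had an unadjusted p under 0.05.

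The partners of p27 are given with their values. Cdk2, the kinase that p27 holds inactive with cyclin E, had a fold enrichment of 10.2, 9.35 and 9.50 in WT PRO and 12.2 and 10.9 in p27KO PRO libraries (difference 0.19 ± 0.14 SE, limma adjusted p = 0.947). Ccne1, which encodes cyclin E1, had 7.99, 9.89 and 9.04 against 10.2 and 9.76 (difference 0.08, limma adjusted p = 0.991). Ccnd1, which encodes cyclin D1, had 4.51, 4.83 and 4.49 against 4.70 and 4.72 (difference −0.02, limma adjusted p = 0.996). The Ccne1 and Ccnd1 percentiles overlapped between genotypes, whereas those of Cdk2 (81.3, 76.97 and 81.2 against 86.0 and 83.5) did not. Skp2, the F-box protein that marks p27 for degradation, had 14.7, 14.9 and 13.9 against 15.8 and 14.4 (difference −0.14, limma adjusted p = 0.974). Mki67, the proliferation marker, had 12.2, 13.9 and 11.3 against 12.9 and 11.96 (difference −0.17, limma adjusted p = 0.974). By percentile, Skp2 was lower in both p27KO than in all WT libraries and Mki67 overlapped.

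Regulators of the neural lineage also gave small differences. Sox2, a stem cell transcription factor gene, had a fold enrichment of 7.65, 8.14 and 9.92 in WT PRO and 10.1 and 9.51 in p27KO PRO libraries (difference 0.12 ± 0.18 SE, limma adjusted p = 0.989). Olig2, which marks transit amplifying and oligodendrocyte progenitors, had 4.95, 5.57 and 5.62 against 6.49 and 6.87 (difference 0.26 ± 0.16 SE, limma adjusted p = 0.915). Egfr, which encodes the EGF receptor, had 8.51, 8.46 and 5.86 against 9.48 and 10.2 (difference 0.31 ± 0.17 SE, limma adjusted p = 0.908). The percentiles of Olig2 and Egfr were higher in both p27KO than in all WT libraries, and those of Sox2 overlapped. The share of all promoters with such a separation was not counted. Gfap, an astrocyte and stem cell filament gene, had 8.45, 8.75 and 9.28 against 9.85 and 9.22 (difference 0.04, limma adjusted p = 0.996), with overlapping percentiles.

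**Figure D5:**
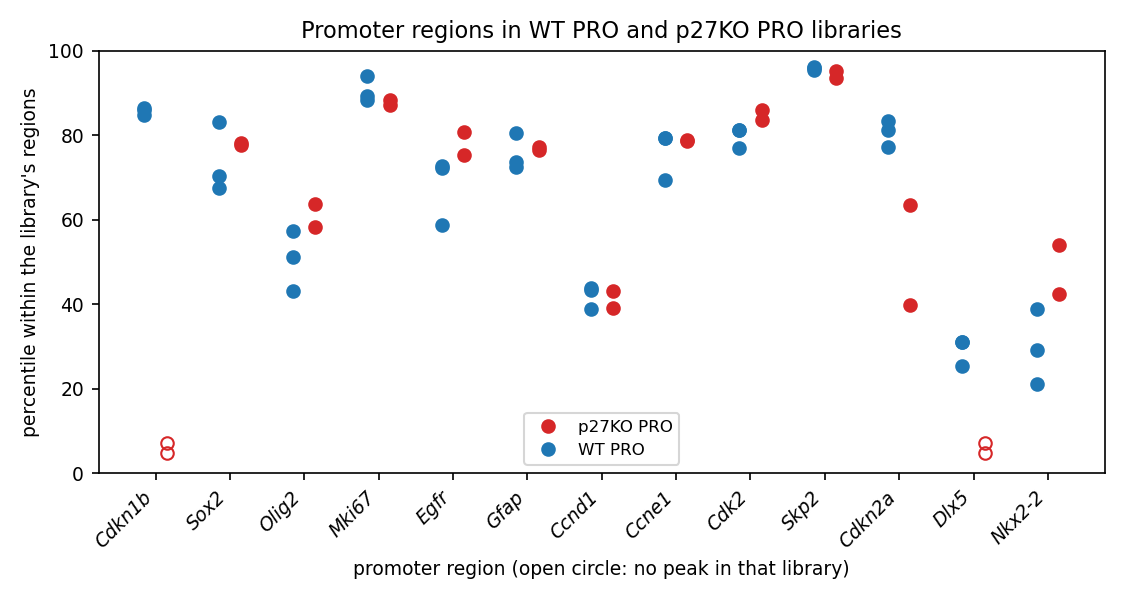
Percentile of promoter regions within each PRO library (0 to 100), with 1 point per library and an open circle where the library had no peak. The Cdkn1b points lie at 84.7 to 86.5 in WT and at the bottom in p27KO, while Sox2, Mki67, Gfap, Ccnd1 and Ccne1 overlap between genotypes.

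The cell types held by these cultures were described by marker promoters. All 20 neural stem and progenitor genes had a region open in all 5 libraries, with 11 higher and a median difference of 0.08. Of the neuroblast genes, 19 of 20 had a region (10 higher, median 0.04), of oligodendrocyte lineage genes 16 of 20 (8 higher, median −0.01) and of astrocyte genes 14 of 15 (9 higher, median 0.05). Dlx5, a gene of interneuron precursors, had 3.99, 3.94 and 3.33 in WT PRO and no peak in p27KO PRO libraries (difference −1.02 ± 0.14 SE, limma unadjusted p = 0.000155, adjusted p = 0.184). Nkx2-2, an oligodendrocyte lineage factor gene, had 4.49, 3.21 and 3.55 against 5.00 and 5.71 (difference 0.50 ± 0.19 SE, limma adjusted p = 0.830). Neither overlapped between genotypes.

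Markers of other cells were examined in the same way. A region was present for 6 of 12 microglia and blood genes (2 higher, median −0.09), 6 of 12 endothelial genes (1 higher, median −0.12), 10 of 12 mural cell and fibroblast genes (4 higher, median −0.03) and 9 of 10 ependymal genes (2 higher, median −0.16). None was called. Of the 12 microglia and blood genes, Cx3cr1, Itgam, Ptprc, Spi1, C1qa and Trem2 had no region, and of the endothelial genes, Pecam1, Cldn5, Cdh5, Tek, Tie1 and Emcn had none. An unadjusted p under 0.05 was found for Slco1a4 (−0.73), Rgs5 (−0.55) and Gmnc (−0.69) (limma, adjusted p = 0.830, 0.778 and 0.830). An open promoter in bulk chromatin does not tell how many cells carry it, and fewer cells of a type cannot be told apart from less accessibility per cell.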

How the data were processed

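The authors clipped adapters (Cutadapt), trimmed reads (Trimmomatic, at least 20 bases kept), mapped them with Bowtie2 to GRCm38, marked duplicates (Picard) and ran MACS2 on each library (narrow peaks, no model, FDR 0.05). Versions are not given in the sources used here. The deposited lists give a fold enrichment (a ratio of summit pileup to local background), a −log10 p-value and a −log10 q-value per peak, as called by the authors, in GRCm38 coordinates, printed here counted from 1. Replicates were not pooled.

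Autosomal peaks of the 5 PRO lists were merged at 1 bp of overlap, and regions with a peak in at least 2 lists were kept. Normal scores of within-list ranks of the fold were tested with limma 3.58.1 (R 4.3.3), 1 mean per genotype, with Benjamini-Hochberg adjustment at 0.05. Promoters were regions with a summit within 3 kb of a protein-coding start site in GENCODE M21 (the authors used M18). The step was tested on simulated data. Library values were compared by exact permutation (Python 3.11.15, SciPy 1.17.1). Over 6 such measures, no adjusted p was below 0.24. The study tested reads with DiffBind, which needs alignments that were not used here. Pileups were solved from fold and p where the −log10 p was under 60, and for at least 99.98% of these peaks a whole-number pileup gave back the −log10 p within 0.001. Reads per library are not given in the sources used here, so no counting interval is given.

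Named genes were fixed ones (Cdkn1b, Sox2, Olig2, Mki67, Egfr, Gfap, Ccnd1, Ccne1, Cdk2, Skp2), called regions and promoters, called list members, the strongest single-genotype regions and the genes nearest most p27KO-only regions. Some genes and sequences are not reported here. Members and lists were chosen with earlier results of these data known. Alternatives were equal lists of 57000 peaks, other ranks, filters, windows and fits, and leaving out each library.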

Additional observations from a re-analysis of the deposited data

Results flagged for a closer look

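The interaction of genotype and condition, in a limma fit over all 10 libraries, passed for 16 of the 27 called regions, and 15 of the 16 held a telomere repeat. In each, both p27KO PRO libraries had a peak, no WT PRO library had one, and no DIFF library of either genotype had one. These regions were chosen for their PRO difference, and with all other libraries at the lowest rank the DIFF difference is −0.02 in each, so the interaction repeats the PRO difference and is no separate test of a change between conditions. The interaction was 4.79 near Ppp2r2b, 4.68 near Olfr806, 4.67 near Plxnc1, 4.66 near Mkx, 4.66 near Adcyap1, 4.62 near Ccng2 and 4.62 near Ankle1. It was 4.56 near Gdap2, 4.55 near 1700129C05Rik, 4.52 near Dapk1, 4.51 near Cenpw and 4.37 near Cntnap5b. It was 4.29 near Tbc1d2b, 4.24 near Marcks, 3.97 near Gm8797 and 3.22 near Itga9, the region with no telomere repeat. No promoter passed the interaction test.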

How the results depend on the processing

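Calls were sensitive to the region definition and to single libraries. The 27 called regions became 0 with the replicate block (5773 at an unadjusted limma p under 0.05), 61 in the fit on all 4 groups, 12 by rank of −log10 p, 1 with a peak in 3 or more lists and 0 with a peak in all 5 lists (2914 unadjusted), where regions absent from a genotype are left out by construction. Windows around summits gave 121 (69 higher, 52 lower), of which 19 higher ones overlapped telomere repeats and 6 lower ones tetranucleotide repeats, and the cause of the other calls was not tested. Leaving repeats out gave 2. Without 1 library the count was 0 to 32, with 0 without p27KO PRO replicate 1 (3864 unadjusted) or 2 (3081 unadjusted), where regions open in p27KO alone drop out by construction and the 5 lower regions were tested but not called (scores −4.88 to −2.55, limma adjusted p 0.252 to 0.858). Promoters called were 0 with the replicate block (911 unadjusted), 8 in the fit on all 4 groups, 0 with a peak in all 5 lists (761 unadjusted) and 41 with summit windows, and 0 to 1 without 1 library, 0 without WT PRO replicate 3 (935 unadjusted). The Cdkn1b difference was −2.63 with the replicate block (limma, adjusted p = 0.121), and without 1 library −2.86 to −2.68, with an adjusted p of 0.0625 without WT PRO replicate 3.

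The p27KO-only count of 2110 was 684 with equal lists, 3249 to 3598 without 1 WT PRO library, and with both 1267, 1169 and 1293 without WT PRO replicates 1 to 3. The WT-only count of 478 was 1059 to 2275 without 1 library and, with equal lists as well, 1490, 1259 and 1464 without WT PRO replicates 1 to 3 and 2148 and 1896 without p27KO PRO replicates 1 and 2. A p27KO-only count without a p27KO PRO library could not be had, as regions need 2 lists. The promoter share reversed to 0.0810 percentage points with equal lists. The share on chromosome 1 stayed higher in p27KO, at 1.25 to 1.70 points without 1 library and 1.02 points with equal lists, and the tract difference at 37.5 to 45.

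Among uncalled promoters, the direction reversed for Sox2 (−0.0068 by rank of −log10 p), Gfap (−0.0002 by that rank, −0.0142 to 0.1195 without 1 library), Ccnd1 (−0.075 to 0.0313 without 1 library), Ccne1 (−0.023 to 0.1369 without 1 library) and Gmnc (0.45 with 3 or more lists, 0.33 with −log10 q of at least 3, −0.9957 to 0.80 without 1 library). Correlations of same-numbered deviations were −0.05 and 0.00 over 53420 regions. The 2 p27KO libraries deviate from their mean as mirror images, so these correlations do not decide whether replicate numbers pair the libraries. The block left no region or promoter called. The added alternatives were chosen after seeing the data.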
